A study of Mus musculus with 2 samples.

Results

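The let-7 family is a set of microRNAs (miRNAs, short RNAs that guide silencing of messenger RNAs) whose members share nearly the same sequence and are encoded at many places in the mouse genome. Some let-7 RNAs are made from a single hairpin gene. The genes Mirlet7b, Mirlet7d, Mirlet7e, Mirlet7g and Mirlet7i were taken because their names carry no numbered duplicate, which gives 5 of the 2202 miRNA genes in the deposited tables. Small RNA (a size range below 30 bases) was sequenced from left cerebral cortex. The tissue came from female 5xFAD/CAST mice, adult at 8 to 10 months, and gave 1 group of 2 libraries, replicate 2 and replicate 1. 5xFAD is a transgenic mouse line that forms amyloid plaques in the brain. The labels give the strain name and no further genotype, and no second strain, age or treatment was analysed here, so the comparisons are between genes and between the libraries. The donor entry is shared by both libraries while the tissue entry is not, and no label speaks of separate animals. The p-values therefore cover the gap between 2 libraries only, and that gap may be a technical one.

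A mature let-7 recognises its targets mainly through its seed, bases 2 to 8 from its 5′ end. The family accumulates as cells leave the proliferating state and represses growth and cell cycle genes, among them Ras genes, Hmga2 and Lin28a. Lin28 proteins in turn bind let-7 precursors and block their maturation in early embryonic cells. In brain, let-7 is among the main miRNAs of mature neurons and glia.

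The 5′ arm (5p) products of the 5 genes are shown with those of the remaining family, because the few bases in which they differ decide whether a read can be placed at 1 gene. Sequences are from RefSeq on GRCm38.p6, written 5′ to 3′, and capitals mark the seed.
let-7g-5p: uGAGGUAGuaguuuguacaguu
let-7i-5p: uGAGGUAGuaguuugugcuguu
let-7b-5p: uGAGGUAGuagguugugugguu
let-7d-5p: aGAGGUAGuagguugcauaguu
let-7e-5p: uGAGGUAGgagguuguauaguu
let-7a-5p: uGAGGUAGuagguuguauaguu
let-7c-5p: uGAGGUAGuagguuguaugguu
let-7f-5p: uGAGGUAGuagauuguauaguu
miR-98-5p: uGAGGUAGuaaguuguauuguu
All 9 have 22 bases and the seed GAGGUAG. Counted from 1 at the 5′ end and with the base of let-7a first, let-7e differs from let-7a by U9G alone. The let-7b product differs by A17G and A19G, let-7d by U1A and U16C, and let-7g by G12U and U18C. The let-7i product carries 4 differences, G12U, A17G, U18C and A19U. Among the 5 genes the products of Mirlet7g and Mirlet7i were closest, with 90.9% identity, and those of Mirlet7d and Mirlet7i were furthest apart, with 72.7%.

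Each 5p product of the 5 genes occurred in 1 of the 2202 annotated hairpins, its own, and so did each product of the 3′ arm (3p). The products of let-7a, let-7c and let-7f each occurred in 2 hairpins, and the 3p products of Mirlet7a-1 and Mirlet7c-2 were the same sequence in 2 hairpins. The tables keep multimapping reads apart from the genes, so a full let-7a, let-7c or let-7f read would not be credited to either locus. Read from its 5′ end, let-7d became unlike every other hairpin at 9 bases, while let-7b, let-7e, let-7g and let-7i needed 17 bases. This search covered annotated hairpins and not the rest of the genome. A shortened read of any of the 5 genes, let-7d included, could therefore be set aside as multimapping. The let-7b product lies 1 base from let-7c and let-7e lies 1 base from let-7a, while let-7d, let-7g and let-7i lie at least 2 bases from any other sequence of the family shown here.

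Replicate 2 held 5162369 counts on the strand of a miRNA gene and replicate 1 held 4226300, which is 32.4% and 32.6% of the reads in their tables. Levels below are in CPM (counts per 1000000 of that total), and errors are SD over the 2 libraries. Of the 10 neuronal marker genes all had counts, summing to 40147 CPM in replicate 2 and 65135 CPM in replicate 1. The Mir124a genes, which share their product between loci, held at most 19 counts each. The 5 striated muscle markers summed to 52.3 CPM in replicate 2 and 39.0 CPM in replicate 1. Nearly all of it was Mir206, with 270 counts in replicate 2 and 163 in replicate 1, beside 0 and 2 for Mir1a-2. Mir1a-1, Mir133a-1 and Mir133a-2 had 0 counts in both libraries, but miR-1a and miR-133a are also known to be made from more than 1 locus, so their reads may be among those set aside. The libraries also differed in genes of other cells. Both erythrocyte markers, Mir451a and Mir144, were higher in replicate 2, summing to 861 CPM there and 36.2 CPM in replicate 1, and the Mir302 genes of pluripotent cells with Mir290a summed to 0.194 CPM in replicate 2 and 423 CPM in replicate 1, Mir290a having 0 counts in both.

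Together the 5 genes took 35.6% of the miRNA counts in replicate 2 (exact Clopper-Pearson 95% interval 35.5 to 35.6) and 28.7% in replicate 1 (28.7 to 28.8), a mean of 32.1% ± 4.83 (SD, n = 2). These intervals cover counting error only, and reads without molecular identifiers are not independent molecules. The 2 intervals did not overlap, but 58.8% of the 546 genes tested between the libraries also differed past counting error by the exact binomial test below. The gap therefore does not set the 5 genes apart.

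In these counts, which leave out multimapping reads, Mirlet7g stood first of all miRNA genes by mean level. Its hairpin lies on the plus strand at chr9:106178840-106178927 (mm10), in an intron of the protein-coding gene Wdr82, and its precursor is a well studied substrate of Lin28-directed uridylation. It had 135551 CPM in replicate 2 and 100608 CPM in replicate 1, a mean of 118079 CPM ± 24708 (SD, n = 2). It ranked 1 in replicate 2 and 2 in replicate 1, where Mir139 had more counts. The mean of Mir139 was 117333 CPM ± 37043 (SD, n = 2), so the lead of Mirlet7g by mean was smaller than either SD.

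Mirlet7b, which in neural stem cells represses Nr2e1 and Ccnd1, was the second of the 5. Its hairpin lies on the plus strand at chr15:85707319-85707403, in an exon of the noncoding transcript Lncppara. It had 71982 CPM in replicate 2 and 71452 CPM in replicate 1, a mean of 71717 CPM ± 374 (SD, n = 2), and ranked 3 in both libraries. The next gene above it by mean was Mir139 and the next below was Mirlet7i.

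Mirlet7i lies on the minus strand at chr10:122985640-122985724, within an exon of the transcribed pseudogene D630033A02Rik, and in human cholangiocytes its product targets TLR4. It had 64228 CPM in replicate 2 and 46367 CPM in replicate 1, a mean of 55297 CPM ± 12630 (SD, n = 2). Mirlet7d lies on the minus strand at chr13:48536012-48536114, in an exon of the long noncoding RNA 6720427I07Rik, and its product is the one that opens with A in place of U. It had 53995 CPM in replicate 2 and 39274 CPM in replicate 1, a mean of 46634 CPM ± 10409 (SD, n = 2). Mir744 fell between these 2 genes by mean level.

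Mirlet7e was the lowest of the 5. Its hairpin lies on the plus strand at chr17:17830352-17830444, in an intron of Spaca6 between the hairpins of Mir99b and Mir125a, and in mouse macrophages its product represses Tlr4. It had 29866 CPM in replicate 2 and 29549 CPM in replicate 1, a mean of 29708 CPM ± 224 (SD, n = 2), and its neighbours by mean level were Mir132 above and Mir23b below. The predicted miRNA gene Gm25927 overlaps Mirlet7e on the other strand. Without regard to strand Mirlet7e had 0 counts in both libraries, so its level rests on the counts that use strand.

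**Figure D1:**
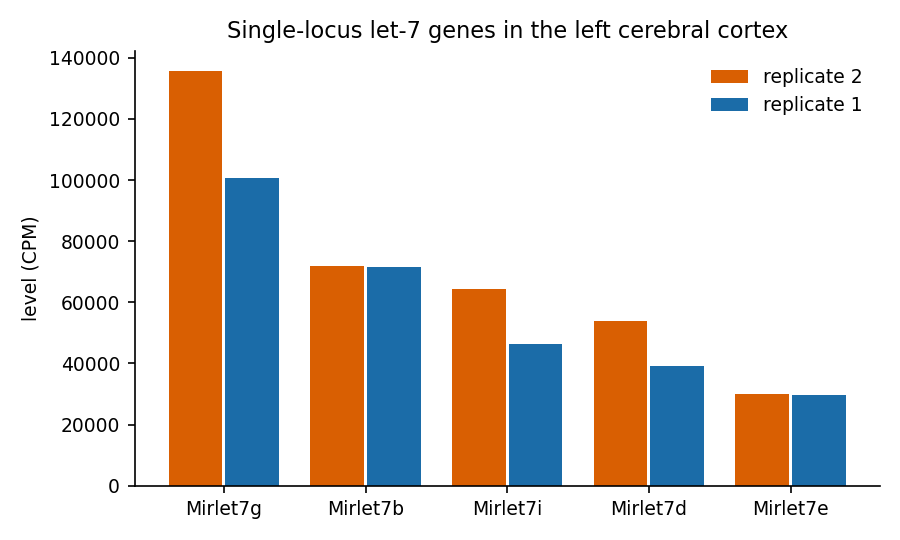
Level of each single-locus let-7 gene in CPM, with 1 bar per library (replicate 2 left, replicate 1 right) and the genes ordered by mean. Mirlet7g, Mirlet7i and Mirlet7d are higher in replicate 2, while the bars of Mirlet7b and Mirlet7e are nearly level, at 71982 and 71452 CPM for Mirlet7b.

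The order Mirlet7g, Mirlet7b, Mirlet7i, Mirlet7d, Mirlet7e was the same in both libraries. The ranges of the 2 libraries overlapped for 1 neighbouring pair, Mirlet7i and Mirlet7d, whose means differed by 8663 CPM against a sum of SDs of 23039 CPM. Within a library, Mirlet7i had 1.19 times the counts of Mirlet7d in replicate 2 and 1.18 times in replicate 1. For the other neighbours the ranges did not overlap, and the difference of means exceeded the sum of SDs (46362 against 25082 CPM for Mirlet7g and Mirlet7b, 16420 against 13004 for Mirlet7b and Mirlet7i, and 16927 against 10634 for Mirlet7d and Mirlet7e). The 5p and 3p products of all 5 genes have 22 bases, so dividing by mature length keeps this order by construction. The values run from 5367 CPM per base for Mirlet7g to 1350 CPM per base for Mirlet7e. Ligation and amplification can favour some small RNA sequences over others, and how they treated these sequences was not tested.

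The remaining let-7 list (6 genes of let-7a, let-7c and let-7f, and Mir98) held few counts beside the 5 genes. Full reads of let-7a, let-7c or let-7f would be set aside as multimapping, so the share below follows in part from how reads were counted. The 5 genes had 96.8% of the counts of the list in both replicate 2 and replicate 1, a mean of 96.8% ± 0.020 (SD, n = 2). Of the others Mir98, whose product is unlike every other hairpin from base 11 and occurs in 1 hairpin, was the highest, with 5653 CPM in replicate 2 and 3890 CPM in replicate 1. Mirlet7g stood at 24.0 times the counts of Mir98 in replicate 2 and 25.9 times in replicate 1.

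The 6 genes whose 5p product is shared between loci took 0.617% of the miRNA counts in replicate 2 and 0.574% in replicate 1. Their means ran from 212 CPM for Mirlet7a-2 to 3401 CPM for Mirlet7f-2, all below the lowest of the 5 genes. Multimapping reads came to 6290303 in replicate 2 (1.22 times the miRNA counts) and 5244644 in replicate 1 (1.24 times). The tables do not say which sequences these reads carry, so the levels of let-7a, let-7c and let-7f cannot be ranked against the 5 genes. RefSeq entries with the same seed also exist for Mir1961 and Mir7k (let-7k), chosen after their values were seen, and each had 1 count in replicate 2 and 0 in replicate 1.

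**Figure D2:**
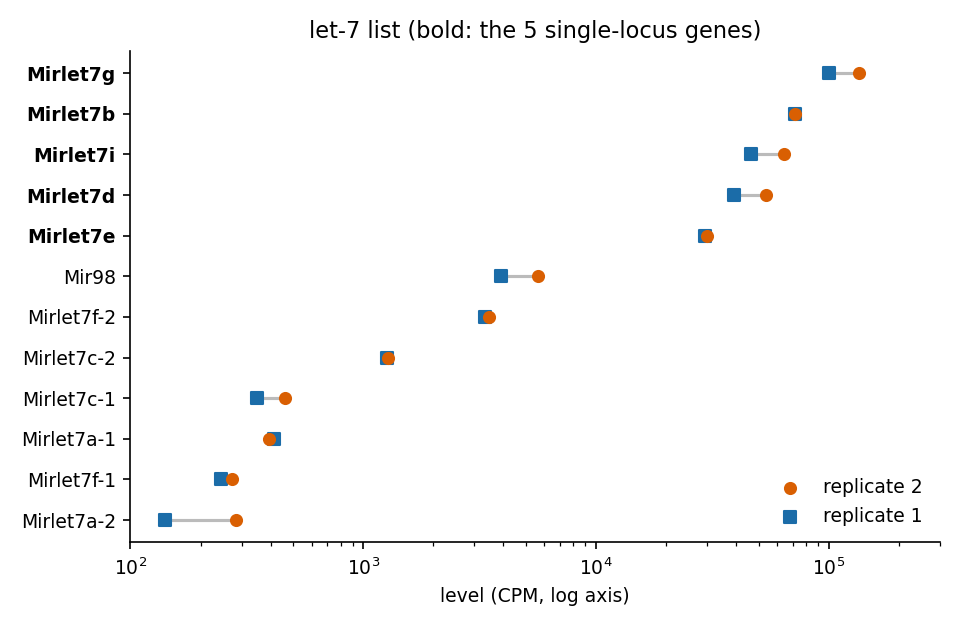
Level in CPM on a log axis for the 12 genes of the let-7 list, with circles for replicate 2 and squares for replicate 1. The 5 single-locus genes (bold) lie at 29549 CPM or more and the 7 other genes at 5653 CPM or less in both libraries. Multimapping reads, which would include full reads of let-7a, let-7c and let-7f, are left out.

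Between the libraries the 5 genes fell into 2 sets. Mirlet7g, Mirlet7i and Mirlet7d were higher in replicate 2 by nearly the same factor, and Mirlet7b and Mirlet7e differed by about 1% under the scaling given next. With library sizes scaled by TMM (a trimmed mean of log ratios) and 0.5 counts added, Mirlet7g was 1.32-fold higher in replicate 2 (95% counting interval 1.31 to 1.32), Mirlet7d 1.35-fold (1.34 to 1.35) and Mirlet7i 1.36-fold (1.35 to 1.36). The log2 ratio of replicate 2 over replicate 1 was -0.020 for Mirlet7b (-0.027 to -0.014) and -0.016 for Mirlet7e (-0.027 to -0.0050). A pseudocount of 5 left both negative, as did counts on either strand for Mirlet7b, but 5 other scalings or filters turned both positive, to between 0.011 and 0.16 for Mirlet7b and between 0.015 and 0.17 for Mirlet7e. Neither a direction nor a fixed size is therefore given for Mirlet7b and Mirlet7e. The log2 ratios of the other 3 genes stayed positive under all of these settings, but their size moved with the scaling. They ran from 0.40 to 0.58 for Mirlet7g, from 0.43 to 0.61 for Mirlet7d and from 0.44 to 0.62 for Mirlet7i. The high ends came with total counts outside the let-7 list as the scale, and the counting intervals do not cover this spread.

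By a two-sided exact binomial test with Benjamini-Hochberg adjustment over 546 genes all 5 passed the threshold of 0.05, Mirlet7b with an adjusted p of 2.1e-08, Mirlet7e with 0.0084, and the other 3 with values too small to be held as a number. This test compares these libraries, not conditions, and allows for counting error alone. Of all 546 genes 58.8% passed, 24.5% as higher in replicate 2 and 34.2% as higher in replicate 1, and all 19 genes with a mean of 10000 CPM or more passed, so passing does not set the 5 genes apart. With total counts outside the let-7 list as the scale the median log2 ratio of all tested genes moved by 0.18, and the share of calls that were higher in replicate 2 was 58.1% in place of 41.7%. When the spread between libraries was assumed to be 10% (a biological coefficient of variation, BCV, of 0.1 in edgeR's exact test), none of the 5 passed, with adjusted p of 0.093 for Mirlet7i, 0.10 for Mirlet7d and 0.13 for Mirlet7g, while 28.8% of all genes did.

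The ratio of 1 gene to another within a library is free of scaling. Its change between the libraries follows from the same counts as the log2 ratios above. It therefore must show the same 2 sets and is no separate support for them. Mirlet7b had 2.41 times the counts of Mirlet7e in replicate 2 and 2.42 times in replicate 1, a change by a factor of 0.997 (Woolf 95% interval 0.988 to 1.01, counting error only). Mirlet7i had 1.19 times the counts of Mirlet7d in replicate 2 and 1.18 times in replicate 1, a change by 1.01 (0.999 to 1.02). Both intervals hold 1. Mirlet7g against Mirlet7i changed by 0.973 (0.966 to 0.979) and Mirlet7g against Mirlet7d by 0.980 (0.973 to 0.987), which is past counting error and under 3%. Across the sets the ratios moved further. Mirlet7g had 1.88 times the counts of Mirlet7b in replicate 2 and 1.41 times in replicate 1, a change by 1.34 (1.33 to 1.35), and Mirlet7b against Mirlet7i changed by 0.727 (0.722 to 0.733).

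Within the counts of the 5 genes, Mirlet7g made up 38.1% in replicate 2 and 35.0% in replicate 1, and Mirlet7i 18.1% and 16.1%. Mirlet7d made up 15.2% in replicate 2 and 13.7% in replicate 1. Mirlet7b made up 20.2% in replicate 2 and 24.9% in replicate 1, and Mirlet7e 8.40% and 10.3%. The share of erythrocyte markers was higher in the library where Mirlet7g, Mirlet7i and Mirlet7d were higher, at 861 CPM in replicate 2 against 36.2 CPM in replicate 1, as was that of the endothelial Mir126a with Mir126b, at 13122 against 7756 CPM. Neuronal markers summed to less there, 40147 CPM in replicate 2 against 65135 CPM in replicate 1, with 2 of the 10 called higher in replicate 2 and 6 called higher in replicate 1. Most of that gap was Mir132, chosen after its values were seen, and the 9 others summed to 18958 CPM in replicate 2 and 24558 CPM in replicate 1. The 3 oligodendrocyte markers summed to 5341 CPM in replicate 2 and 7100 CPM in replicate 1, and of the 3 the test called 0 as higher in replicate 2 and 2 as higher in replicate 1. Astrocyte and progenitor markers summed to 108 CPM in replicate 2 and 112 CPM in replicate 1. In the same order microglial markers summed to 288 and 261 CPM and smooth muscle markers to 6205 and 5511 CPM. Each of these lists had 1 gene called each way. The lists of muscle (52.3 and 39.0 CPM) and liver (86.6 and 48.5 CPM) summed to more in replicate 2. That of pluripotent cells (0.194 and 423 CPM) summed to more in replicate 1. The part of these cells in the let-7 ratios was not tested, and in bulk tissue fewer cells of a type and less RNA per cell cannot be told apart.

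Among the 19 most abundant genes, 14 were not among the 5, and their median log2 ratio was 0.061, against 0.40 for the 5 genes and -0.069 for all 546 tested. By absolute log2 ratio Mirlet7i, Mirlet7d and Mirlet7g ranked 6, 7 and 8 of these 19, and Mirlet7b and Mirlet7e ranked 17 and 18. Among those 14 genes, the ratios closest to those of Mirlet7i and Mirlet7d were those of Mir652 (log2 ratio 0.45) and Mir770 (0.52), and for Mirlet7g those of Mir652 and Mir127 (0.32). For both Mirlet7b and Mirlet7e the closest of the 14 were Mir744 (0.011) and Mir330 (-0.052). Mirlet7b and Mirlet7e lay nearer to each other than to these, as did Mirlet7i and Mirlet7d, and genes below 10000 CPM were not ranked. This likeness is the absolute difference of log2 ratios over 2 libraries.

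**Figure D3:**
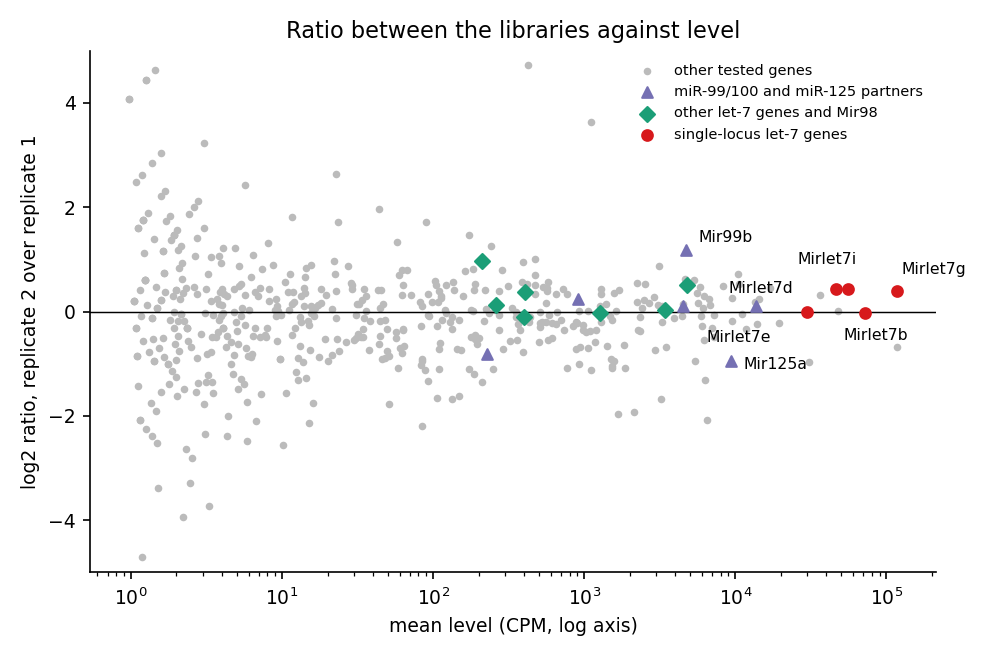
Log2 ratio of replicate 2 over replicate 1 (TMM-scaled) against mean level in CPM on a log axis for the 546 tested genes, of which 8 lie beyond 5 log2 units and are not drawn. Mirlet7g, Mirlet7i and Mirlet7d sit together at 0.40 to 0.44 and Mirlet7b and Mirlet7e near 0, with Mir99b above and Mir125a below them.

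The hairpins next to the 5 genes did not always move with them. Mirlet7g and Mirlet7i have no other miRNA gene within 10000 bases. Mirlet7e lies in a cluster of 3 hairpins on the plus strand, with Mir99b starting 164 bases before it and Mir125a starting 460 bases after it. The partners belong to other seed families, shown here because the cluster carries 3 different seeds (capitals).
miR-99b-5p: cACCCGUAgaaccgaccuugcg
let-7e-5p: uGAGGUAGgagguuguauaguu
miR-125a-5p: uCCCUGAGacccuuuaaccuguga
Products of the miR-99 family repress Mtor, and miR-125a represses Dlg4, the message of the synaptic scaffold PSD-95, in mouse dendrites.

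Mir99b had 6587 CPM in replicate 2 and 2838 CPM in replicate 1, and Mir125a had 6545 CPM in replicate 2 and 12289 CPM in replicate 1. Both lay below Mirlet7e in each library, and they stood at nearly equal levels in replicate 2 and 4.33-fold apart in replicate 1. Mir99b was 2.27-fold higher in replicate 2 (95% counting interval 2.22 to 2.32) and Mir125a was 1.92-fold higher in replicate 1 (log2 ratio -0.94, -0.96 to -0.92). Their ratio to each other thus changed by a factor of 4.36 (Woolf 95% interval 4.25 to 4.47), with Mirlet7e between them at a log2 ratio of -0.016. Both partners passed the edgeR exact test at a BCV of 0.1, with adjusted p of 2.4e-07 for Mir99b and 5.8e-05 for Mir125a. At that setting 28.8% of all genes passed. Neither partner passed at a BCV of 0.4, where 1.28% of genes did. The 5p products of Mir99b and Mir125a each occurred in 1 hairpin.

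Mirlet7b lies 716 bases after Mirlet7c-2 in the same transcript, Lncppara. Mirlet7c-2 had 1280 CPM in replicate 2 and 1268 CPM in replicate 1, and Mirlet7b stood at 56.2 times its counts in replicate 2 and 56.3 times in replicate 1. That ratio changed by a factor of 0.998 (Woolf 95% interval 0.963 to 1.04), an interval that holds 1. Both products of Mirlet7c-2 occur at 2 loci, so its counts are what is left after those reads are set aside.

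Mirlet7d follows Mirlet7a-1 and Mirlet7f-1 in an exon of 6720427I07Rik, 2158 and 1803 bases after their starts. Mirlet7a-1 had 392 CPM in replicate 2 and 412 CPM in replicate 1, and Mirlet7f-1 had 274 CPM in replicate 2 and 245 CPM in replicate 1. Mirlet7d stood at 138 times the counts of Mirlet7a-1 in replicate 2 and 95.3 times in replicate 1, a change by 1.44 (Woolf 95% interval 1.35 to 1.54). Against Mirlet7f-1 it changed by 1.23 (1.14 to 1.33). Both products of Mirlet7a-1 and the 5p product of Mirlet7f-1 occur at 2 loci. The counts of these 2 genes are thus what is left after such reads are set aside, and whether the hairpins themselves differ was not tested. Neither Mirlet7a-1 (adjusted p = 0.0513) nor Mirlet7f-1 (adjusted p = 0.0501) passed the exact binomial test.

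**Figure D4:**
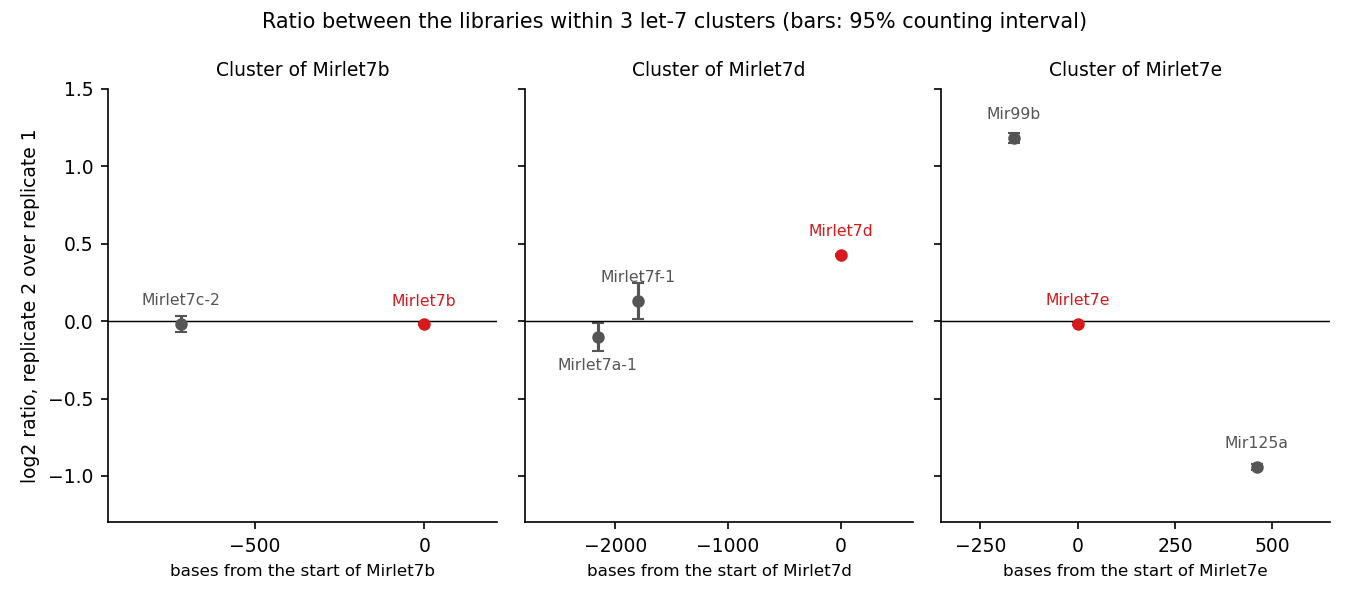
Log2 ratio of replicate 2 over replicate 1 for hairpins on the same strand as Mirlet7b, Mirlet7d or Mirlet7e (red), against the distance in bases from the start of that gene, with bars for the 95% counting interval. Mirlet7b and Mirlet7c-2 sit together near 0, Mirlet7d lies above its partners, and Mir99b and Mir125a lie on either side of Mirlet7e at 1.18 and -0.94. The points of Mirlet7c-2, Mirlet7a-1 and Mirlet7f-1 lack the multimapping reads of products shared between loci.

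Across the 12 genes of the let-7 list, 6 passed the exact binomial test as higher in replicate 2, 2 (Mirlet7b and Mirlet7e) as higher in replicate 1, which other scalings reversed, and 4 did not pass. The 8 called of 12 stand beside 58.8% of all tested genes, 24.5% higher in replicate 2 and 34.2% higher in replicate 1. The median log2 ratio of the list was 0.25. Outside the 5 genes Mir98 (log2 ratio 0.51), Mirlet7a-2 (0.97) and Mirlet7c-1 (0.37) were called higher in replicate 2. Other let-7 genes lie on the same chromosome and strand as further miR-99, miR-100 and miR-125 hairpins, some at a long distance. Mir99a, 721 bases from Mirlet7c-1, had a log2 ratio of 0.11, and Mir125b-2, 46616 bases from Mirlet7c-1, had -0.81. Mir100, 5291 bases from Mirlet7a-2, had 0.10, and Mir125b-1, 45210 bases from it, had 0.24. Of the 6 hairpins of these families, those beside Mirlet7e included, 4 were called higher in replicate 2 and 2, Mir125a and Mir125b-2, higher in replicate 1, beside the same 24.5% and 34.2% of all genes. At a BCV of 0.1 in edgeR's exact test, which 28.8% of all genes passed, Mir99a (adjusted p = 0.76), Mir100 (0.79) and Mir125b-1 (0.42) did not pass. By the same test Mir125b-2 (adjusted p = 0.0013), Mirlet7a-2 (7.8e-05) and Mir98 (0.047) passed, and Mirlet7c-1 (0.17) did not.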

How the data were processed

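The authors deposited 1 table of raw counts per library, with 1 row per miRNA gene of GENCODE M21 on mm10, per the record beside each file. The values are whole numbers with different totals, so they are read as not normalized. Each table has a column without regard to strand, a column for the strand of the gene (used here) and a column for the other strand, read off their totals. Which aligner, counter and trimming were used is not given in the sources used here. Of each table, 4 rows name no gene and were used for neither totals nor tests. They hold 67.6% of the reads of replicate 2 and 67.4% for replicate 1. A row sums the 5p and 3p arms of a hairpin. All 2202 IDs matched GENCODE M21, and 11 of 12 let-7 list genes had a 5p entry in RefSeq. Members, lists and named genes (the 5 genes, the let-7 list, cluster partners, the next genes above and below in mean CPM, the 2 genes at 10000 CPM or more nearest in log2 ratio, and cell type markers) were chosen with earlier results of these data known.

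A gene was tested from 10 counts over both libraries upward, with 0.5 counts added for ratios and a threshold of 0.05, in Python 3.11.15 (scipy 1.17.1), with TMM from edgeR 4.0.16 and DESeq2 1.42.0 size factors as an alternative. Other alternatives were counts on either strand, other library totals, minimums of 1 and 100 counts, a pseudocount of 5, edgeR's exact test with a fixed BCV and leaving out 1 library. The design allows no edgeR quasi-likelihood test, since there is 1 group. Simulated data for replicate 2 against replicate 1 (537 genes tested) were drawn with counting error alone (Poisson), which is what the test assumes. Of the 200 genes given a 2-fold change, 189 were tested, and the test found 63.5% of the 200. It called 0.287% of those left alone, a rate that does not carry over to libraries with further spread between them.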

Additional observations from a re-analysis of the deposited data

Results flagged for a closer look

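Some values outside the counts used for the levels lay above the limit of 3 counts that a count of 0 allows. Counts on the opposite strand of Mirlet7b numbered 6 in replicate 2 and 4 in replicate 1, beside 371596 and 301979 on its own strand. Counts on the opposite strand of Gm25927 numbered 154181 in replicate 2 and 124884 in replicate 1, the same numbers that Mirlet7e has on its own strand. They make up 42.4% of the reads called ambiguous without regard to strand in replicate 2 and 43.8% in replicate 1. Multimapping reads came to 6290303 in replicate 2 and 5244644 in replicate 1, and the tables do not divide them among genes.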

How the results depend on the processing

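Levels of the 5 genes moved with the denominator by construction. Over all reads of the table they were 38317 for Mirlet7g, 23283 for Mirlet7b, 17944 for Mirlet7i, 15133 for Mirlet7d and 9645 for Mirlet7e on the CPM scale, with a summed share of 10.4%, and over counts outside the let-7 list 178689, 107708, 83741, 70608 and 44621. Without regard to strand Mirlet7b had 77026 CPM, Mirlet7e 0 CPM and the 5 genes 96.5% of the let-7 list. Leaving out 1 library gave 100608 to 135551 CPM for Mirlet7g, 71452 to 71982 for Mirlet7b, 46367 to 64228 for Mirlet7i, 39274 to 53995 for Mirlet7d and 29549 to 29866 for Mirlet7e, which says nothing about stability with 2 libraries.

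The log2 ratio of Mirlet7b was 0.044 with DESeq2 size factors, 0.011 with total counts, 0.16 with counts outside the let-7 list, 0.019 at 1 count or more and 0.011 at 100 counts or more. For Mirlet7e these were 0.048, 0.015, 0.17, 0.024 and 0.016. The ratios of Mirlet7g, Mirlet7i and Mirlet7d stayed positive and past the binomial threshold under all of these, the unstranded counts and a pseudocount of 5. With edgeR's exact test at a BCV of 0.1 or 0.4 the log2 ratios were by construction the same (0.40 for Mirlet7g, 0.44 for Mirlet7i, 0.43 for Mirlet7d, -0.020 for Mirlet7b, -0.016 for Mirlet7e), and 0 of the 5 genes passed at either. That test called 157 of all genes at 0.1 and 7 at 0.4, in place of 321. Without regard to strand Mirlet7e has no ratio. No paired comparison of conditions was possible because the 2 libraries form 1 group. Depth does not limit the 5 genes, the lowest of which had 154181 counts in replicate 2 and 124884 in replicate 1, and 2 libraries limit every SD.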
